A study of Mus musculus with 4 samples.

Results

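Ferritin and the genes that bring iron into cells, store it and export it were followed across 4 RNA-seq libraries of mouse platelets. The 10 genes were chosen by name: Fth1 and Ftl1 (storage), Tfrc, Slc11a2 and Steap3 (uptake), Slc40a1 (export), Ireb2 and Aco1 (sensing), Ncoa4 (release from ferritin) and Hmox1 (haem breakdown). All 10 are listed in both deposited tables, out of 17995 genes listed in either. The library labelled cKO came from male mice, 3 months old, whose genotype is given as a conditional HuR knockout in platelets, and WT from their wild-type littermates of that age and sex. Old came from wild-type males of 24 months and Young from wild-type males of 3 months. The platelets of 7 mice were pooled for a library, so each group is 1 library and no difference has a replicate check. The sources used here name neither the Cre driver nor the strain.

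Iron enters most cells as transferrin-bound iron through the transferrin receptor, is reduced by a ferrireductase in the endosome and crosses into the cytosol through a divalent metal transporter. Surplus iron is stored in ferritin, a hollow shell of heavy and light chains, or leaves through ferroportin. Iron regulatory proteins bind a hairpin, the iron-responsive element, in the mRNAs of these genes when iron is scarce: in the 5′ UTR they block translation, as for ferritin, and in the 3′ UTR they protect the mRNA from decay, as for the transferrin receptor. Platelets have no nucleus and carry mRNA made by megakaryocytes. HuR, encoded by Elavl1, is an RNA-binding protein that recognises AU-rich elements, mostly in 3′ UTRs.

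The hairpins of the members are shown because they are the sequence by which these genes are known to be controlled. The pattern searched was a C, any 5 bases, the loop CAGTGN and 5 bases able to pair with the 5 before the loop, G-T pairs allowed, on the transcript strand of GENCODE M21 coding transcripts (GRCm38, the same assembly as mm10). The pattern was found in 4 of the 10 members, against 0.938% of the 13866 coding genes listed in a deposited table. The members were chosen by name as iron genes, some of them known for this element, so this contrast is a description and no test. Each line gives a window of 30 bases, 5′ to 3′ on the transcript strand, with the bulged C and the 6-base loop in capitals.
Fth1, 5′ UTR, chr19:9982732-9982761, plus strand: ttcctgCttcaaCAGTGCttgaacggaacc
Ftl1, 5′ UTR, chr7:45459778-45459807, minus strand: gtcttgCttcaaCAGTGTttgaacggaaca
Slc40a1, 5′ UTR, chr1:45925464-45925493, minus strand: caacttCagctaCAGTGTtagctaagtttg
Tfrc, 3′ UTR, chr16:32631219-32631248, plus strand: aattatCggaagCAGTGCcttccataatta
Tfrc, 3′ UTR, chr16:32631598-32631627, plus strand: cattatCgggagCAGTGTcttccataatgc
Tfrc, 3′ UTR, chr16:32631663-32631692, plus strand: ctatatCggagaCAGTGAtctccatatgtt
Tfrc, 3′ UTR, chr16:32631710-32631739, plus strand: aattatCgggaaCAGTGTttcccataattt
Tfrc held 4 matches, all in its 3′ UTR, and the other 3 genes 1 each. Slc11a2, Ireb2, Aco1, Hmox1, Steap3 and Ncoa4 had no match to these letters. The pattern is strict and misses elements with another loop or an imperfect stem. A gene without a match can thus still carry an iron-responsive element. The AU-rich pentamer ATTTA, counted on the transcript strand in the 3′ UTR of 1 transcript per gene, occurred 5 times each in Tfrc and Ncoa4, 4 times in Ireb2, 2 times each in Slc40a1 and Slc11a2 and 1 time in Hmox1. It was not found in that of Fth1, Ftl1, Aco1 or Steap3. Of 13810 listed genes with an annotated 3′ UTR, 64.2% held at least 1 and 19% at least 5.

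The libraries held 17702341 reads for the library labelled cKO, 17978384 for WT, 18472149 for Old and 18145612 for Young, as recovered from the scaled values. Elavl1, the targeted gene, had 1481 reads in the library labelled cKO and 876 in WT, a ratio of 1.66 (1.53 to 1.81), so it was not lower in the library that its label calls a knockout. Directions are therefore those of the library labelled cKO and are not read as the loss of HuR, which reads per gene cannot settle. The 12 platelet markers took 5.18% to 6.36% of reads; all but Gp1bb were above the floor of 3 reads in each library, and Gp1bb had 1 read in the library labelled cKO, against 9 in WT, and 12 in Old, against 14 in Young. Levels are in RPM, reads scaled to the library's total. Ratios use library sizes scaled by the trimmed mean of M-values (TMM), with an exact 95% interval for counting error. "Rose" and "fell" are used only where a gene had 100 reads or more in either library and a whole interval at or beyond 2-fold.

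No member rose or fell by this rule in either comparison. In the library labelled cKO over WT, 5 of the 10 members had enough reads and 0 passed, against 4.22% of 6273 genes. In Old over Young, 6 had enough reads and 0 passed, against 8.56% of 6519 genes. The interval left out 1 for 4 of 5 members in the first comparison and 5 of 6 in the second, but it did so for 66% and 76.1% of all genes with as many reads, so this count says little about the iron genes. Over members with at least 20 reads in both libraries together, the median log2 ratio was 0.29 (8 members) in the library labelled cKO over WT and 0.17 (9 members) in Old over Young, where total reads without haemoglobin and the 10 most abundant genes gave -0.06. Over all such genes it was -0.01 and -0.06 with TMM. Scaling by those other totals moves every Old over Young log2 ratio by -0.23, that of all genes included. The -0.06 of the members is therefore not to be set beside the -0.06 of all genes.

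**Figure D1:**
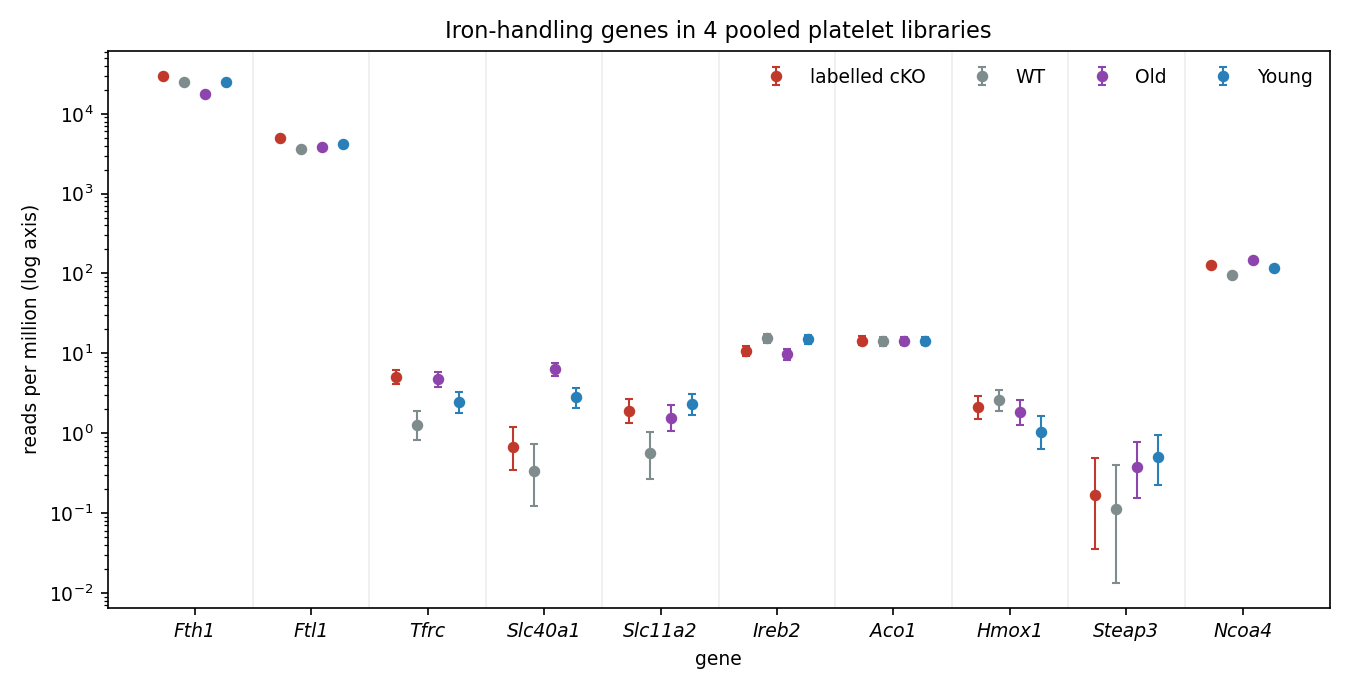
Level of each of the 10 genes in RPM (log axis) in the 4 libraries, 1 point per library; bars are exact Poisson 95% intervals of the read count. Fth1 and Ftl1 lie far above the other members in every library, and Slc40a1 is higher in Old and Young than in the library labelled cKO and WT.

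Fth1 encodes the ferritin heavy chain, which oxidises iron for storage (chromosome 19, 9982703 to 9985092, plus strand, mm10). It took 2.96% of all reads in the library labelled cKO, 2.48% in WT, 1.79% in Old and 2.5% in Young, and ranked 3 by reads in WT and 2 in each of the other libraries. Its level was 29579 RPM in the library labelled cKO, against 24785 RPM in WT, and 17881 RPM in Old, against 25020 RPM in Young. WT and Young, both wild type at 3 months, lay close together, while the library labelled cKO was the highest and Old the lowest. The ratio was 1.15 (1.15 to 1.16) in the library labelled cKO over WT and 0.797 (0.793 to 0.800) in Old over Young, both well inside 2-fold. Across the tables, which the authors scaled separately, WT over Young was 1.07 (1.07 to 1.08) on recovered reads, and the library labelled cKO over Young was 1.26 (1.26 to 1.27). The last 2 ratios share Young with Old over Young.

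Ftl1 encodes the light chain, which lacks the oxidising centre and helps the mineral core to form (chromosome 7, 45457944 to 45459884, minus strand). It had 5002 RPM in the library labelled cKO, against 3602 RPM in WT, and 3793 RPM in Old, against 4143 RPM in Young. The library labelled cKO was the highest of the 4 and WT the lowest. The ratio was 1.34 (1.33 to 1.36) in the library labelled cKO over WT. In Old over Young it was 1.02 (1.01 to 1.03), and the direction depended on the scaling, since total reads gave 0.915.
Ftl1-ps1, a copy that the files list as protein coding, had 1445 reads in the library labelled cKO, against 927 in WT, and 1088 in Old, against 955 in Young. Ftl2-ps had 19 to 24 reads. The sources used here do not say how reads shared between ferritin copies were assigned, so the levels of Fth1 and Ftl1 are uncertain to that extent. Adding the reads of both Ftl copies to Ftl1 gave ratios of 1.35 and 1.02.

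The ratio of heavy to light chain mRNA was taken within each library, where no scaling between libraries enters. Per kilobase of the files' gene models, Fth1 over Ftl1 was 9.15 (9.08 to 9.21) in the library labelled cKO, against 10.6 (10.6 to 10.7) in WT. It was 7.30 (7.24 to 7.35) in Old, against 9.34 (9.27 to 9.42) in Young. WT had the highest ratio and Old the lowest, and the library labelled cKO and Young lay next to each other between them. The ratio changed 0.859-fold (0.850 to 0.869) in the library labelled cKO over WT and 0.781-fold (0.772 to 0.790) in Old over Young, with intervals from the log odds ratio. WT over Young, 2 wild-type libraries of 1 age, differed 1.14-fold (1.13 to 1.15). The absolute ratio depends on the model lengths, 866 bases for Fth1 and 1340 for Ftl1, and its change between libraries does not.

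Ireb2 and Aco1 encode the iron regulatory proteins. Aco1 (chromosome 4) doubles as the cytosolic aconitase when it holds an iron-sulfur cluster, and Ireb2 (chromosome 9) encodes a protein that is degraded when iron is plentiful. Aco1 was nearly level, with 256 reads in the library labelled cKO, against 254 in WT, and 265 in Old, against 258 in Young. Its RPM ranged from 14.1 to 14.5, and the differences were not detectable at this depth. Ireb2 had 191 reads in the library labelled cKO, against 277 in WT, and 179 in Old, against 271 in Young. The library labelled cKO and Old were thus both below the 2 other libraries, which lay close together. The ratio was 0.677 (0.560 to 0.818) in the library labelled cKO over WT and 0.723 (0.595 to 0.877) in Old over Young, and both intervals leave out 1 without reaching 2-fold. Intervals left out 1 for 66% and 76.1% of all genes with at least 100 reads in these comparisons. How many genes were lower in both is not given here. WT over Young was 1.12 (0.941 to 1.33). Within a library and per kilobase, Ireb2 over Aco1 was 0.354 (0.292 to 0.428) in the library labelled cKO, against 0.517 (0.435 to 0.616) in WT, and 0.320 (0.264 to 0.389) in Old, against 0.498 (0.419 to 0.593) in Young. The ratio changed 0.684-fold (0.531 to 0.881) in the library labelled cKO over WT and 0.643-fold (0.498 to 0.830) in Old over Young, 2 pairs that share no library. WT over Young was 1.04 (0.816 to 1.32) on the same measure.

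**Figure D2:**
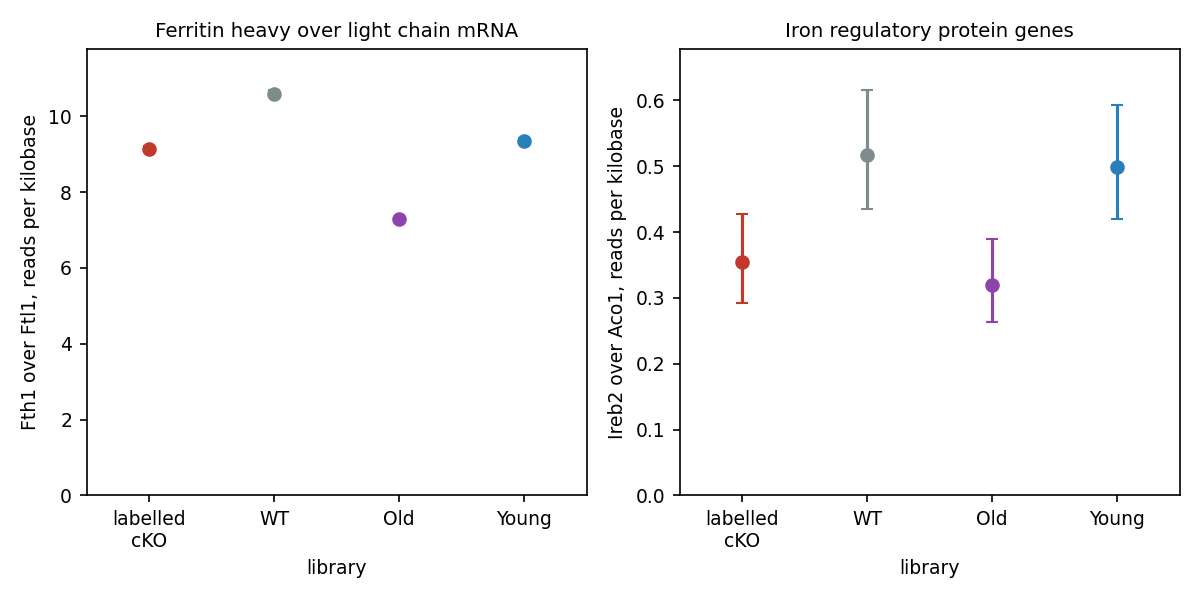
Ratio of Fth1 to Ftl1 (left) and of Ireb2 to Aco1 (right), each in reads per kilobase within 1 library, for the 4 libraries; bars are exact 95% counting intervals and both axes start at 0. Fth1 over Ftl1 is highest in WT (10.6) and lowest in Old (7.30); Ireb2 over Aco1 is 0.354 in the library labelled cKO and 0.320 in Old, against 0.517 in WT and 0.498 in Young.

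Ncoa4 encodes the cargo receptor that takes ferritin to lysosomes, where its iron is released (chromosome 14, 32159865 to 32179855, plus strand). It was the most abundant member after the ferritin chains per kilobase too, with 13.7 RPKM (RPM per kilobase of gene model) in the library labelled cKO, 10.2 in WT, 15.8 in Old and 12.7 in Young. In reads, it had 2273 in the library labelled cKO, against 1720 in WT, and 2733 in Old, against 2152 in Young. The ratio was 1.30 (1.22 to 1.38) in the library labelled cKO over WT and 1.39 (1.31 to 1.47) in Old over Young, above 1 in both and below 2-fold in both. WT over Young was 0.873 (0.819 to 0.931). Ncoa4 relative to Fth1 within a library was 1.75 times as high in Old as in Young (1.65 to 1.85), and 1.12 times as high in the library labelled cKO as in WT (1.06 to 1.2).

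Tfrc encodes the transferrin receptor, and its mRNA carries the 4 hairpins shown above (chromosome 16, 32608920 to 32632794, plus strand). It was scarce, with 90 reads in the library labelled cKO, against 23 in WT, and 87 in Old, against 45 in Young. In RPM the order was 5.08 in the library labelled cKO, 4.71 in Old, 2.48 in Young and 1.28 in WT. The counting intervals of the library labelled cKO (4.09 to 6.25) and Old (3.77 to 5.81) overlap, and so do those of Young (1.81 to 3.32) and WT (0.811 to 1.92). The ratio was 3.84 (2.41 to 6.37) in the library labelled cKO over WT. Its whole interval lies above 2-fold, but the larger count is under 100 reads, so the rule leaves it out. With a minimum of 20 reads Tfrc is the 1 member that passes upward, against 2.9% of 10599 genes. The log2 fold change that the authors deposited for Tfrc was 1.94, which also compares only these 2 libraries. Old over Young was 2.12 (1.46 to 3.11). The library labelled cKO over Young was 2.19 (1.52 to 3.21), smaller than over WT, and WT over Young was 0.559 (0.323 to 0.943).

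Reticulocytes, which take up iron for haemoglobin, also carry Tfrc, and their markers moved with it in the first comparison. Of 21 erythroid markers, 14 had at least 100 reads in the library labelled cKO or WT, and 11 of these rose and 1, the haemoglobin gene Hba-a2, fell. Of 13 in Old over Young, 1 rose and 1, Hbb-bt, fell. Slc4a1, the red-cell anion exchanger, had 4820 reads in the library labelled cKO, against 663 in WT, and 1611 in Old, against 1569 in Young. All 21 summed to 15846 RPM in the library labelled cKO, against 8239 RPM in WT, and 11171 RPM in Old, against 21060 RPM in Young, most of it haemoglobin. Summed without the haemoglobin genes, the markers had 1478 RPM in the library labelled cKO, against 393 RPM in WT, and 759 RPM in Old, against 834 RPM in Young. Klf1 had 0 reads in Young, and every other erythroid marker had reads in every library. Their part in the Tfrc difference was not tested. The median log2 ratio of the erythroid markers in Old over Young was 0.14, with 10 above 1 and 8 below. In pooled platelets, more cells of another type and more RNA per cell cannot be told apart.

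Slc11a2 encodes the divalent metal transporter DMT1, which moves iron out of the endosome (chromosome 15, 100387898 to 100425072, minus strand). It had 34 reads in the library labelled cKO, against 10 in WT, and 29 in Old, against 42 in Young. WT was the low library and the other 3 had overlapping counting intervals. The ratio was 3.34 (1.61 to 7.58) in the library labelled cKO over WT, but 0.888 (0.548 to 1.43) over Young. Old over Young was 0.756 (0.454 to 1.24), not detectable at this depth. WT was 3.84-fold lower than Young (1.90 to 8.59). Steap3, the endosomal ferrireductase of red-cell precursors, had 3 reads in the library labelled cKO, against 2 in WT, and 7 in Old, against 9 in Young. At this depth no difference in Steap3 was detectable.

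Slc40a1 encodes ferroportin, the iron exporter (chromosome 1, 45908068 to 45926523, minus strand). It had 12 reads in the library labelled cKO, against 6 in WT, and 117 in Old, against 51 in Young. The 2 libraries of the Old and Young table were both above the other 2, and Old was the highest. Old over Young was 2.51 (1.79 to 3.56), short of the rule, and the log2 fold change that the authors deposited was 1.33. WT was 7.78-fold lower than Young (3.34 to 22.2), a distance between 2 wild-type libraries of the same age that exceeds the ratio of Old over Young. The library labelled cKO over WT was 1.96 (0.683 to 6.38), with too few reads to tell. Old over WT was 19.5 (8.71 to 54.3), the 1 pairing among the 5 made here in which a member passed the rule, where 4.54% of 6328 genes passed upward. That pairing crosses the tables and shares its libraries with the others.

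Macrophages that recycle red cells are rich in ferroportin, and their markers stand beside these values. The 14 macrophage and monocyte markers other than Lyz2 summed to 16.8 RPM in the library labelled cKO, against 22.7 RPM in WT, and 33.9 RPM in Old, against 16.2 RPM in Young. Lyz2 alone had 40825 reads in the library labelled cKO, against 60816 in WT, and 46508 in Old, against 63478 in Young. Of the 626 reads behind that sum in Old, Ccr2 had 289, against 94 in Young, and Csf1r 177, against 36 in Young, and these 2 markers rose in Old over Young. Adgre1 had 16 reads in Old, against 47 in Young, Mrc1 5, against 19, and Cx3cr1 0, against 13. Cd68 went the other way, at 5.32 times its Young level (2.32 to 14.2) on counts of 34 and 7, too few for the rule. C1qa (11 and 5 reads) and C1qb (6 and 4) also leaned toward Old, with intervals that include 1. The markers thus did not move one way, and their median log2 ratio in Old over Young was 0.13, with 4 above 1 and 3 below. Among the markers of red-pulp macrophages, Spic had 3 to 9 reads per library and Vcam1 0 to 7, with its 0 in Young. Marco is listed in neither table, which leave out genes with fewer than 2 reads over both of their libraries. Timd4, which the other table does not list, had 14 reads in Old, against 0 in Young. Neutrophil markers had 810 RPM in Old, against 31.4 RPM in Young, and 41.3 RPM in the library labelled cKO, against 66.9 RPM in WT, and all 9 with at least 100 reads rose in Old over Young. Ly6g had 40 reads in Old and Camp 29, against 0 in Young for both, and the other table does not list them. Their part in the Slc40a1 difference was not tested.

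Hmox1 encodes haem oxygenase, which frees iron from haem (chromosome 8, 75093621 to 75100589, plus strand). It had 38 reads in the library labelled cKO, against 47 in WT, and 34 in Old, against 19 in Young. Young was the low library. The ratio was 0.794 (0.504 to 1.24) in the library labelled cKO over WT, a difference not detectable at this depth, and 1.96 (1.09 to 3.64) in Old over Young. WT over Young was 2.70 (1.56 to 4.88), a larger ratio than that of Old over Young.

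**Figure D3:**
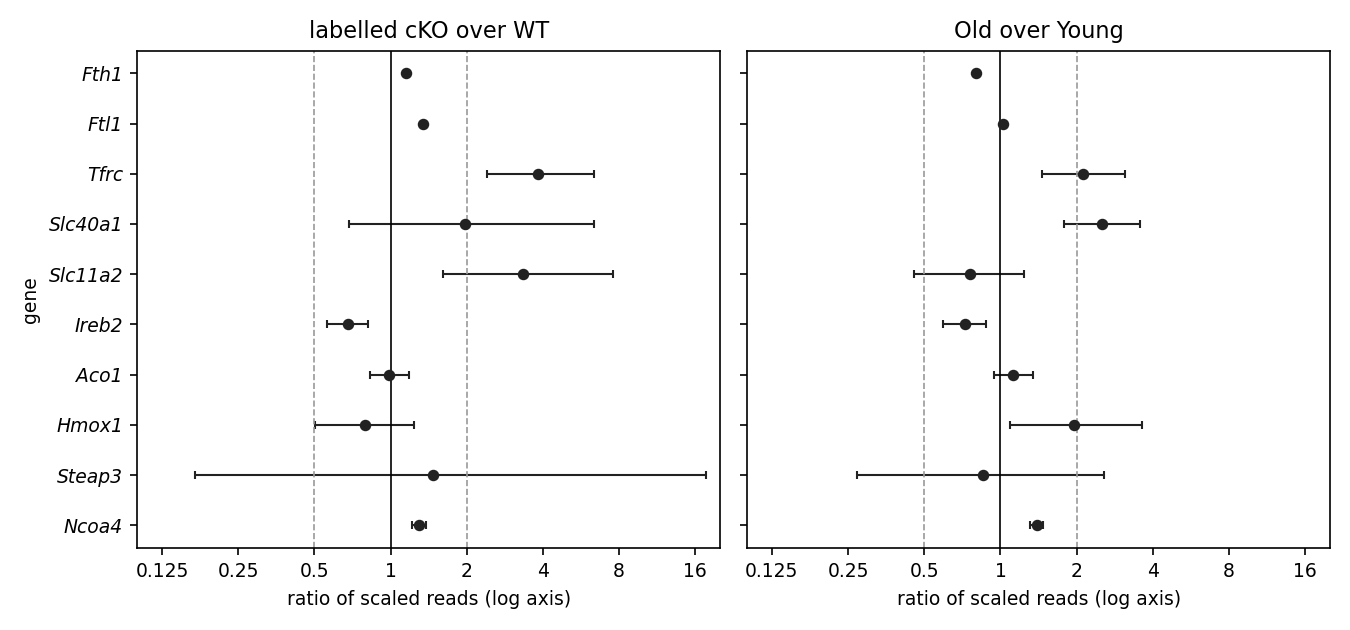
Ratio of scaled reads (log axis) for the 10 genes in the library labelled cKO over WT (left) and Old over Young (right), with exact 95% counting intervals; the solid line marks 1 and the dashed lines 0.5 and 2. Tfrc in the left panel, at 3.84, is the only gene whose whole interval lies beyond a dashed line, and it has under 100 reads.

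**Figure D4:**
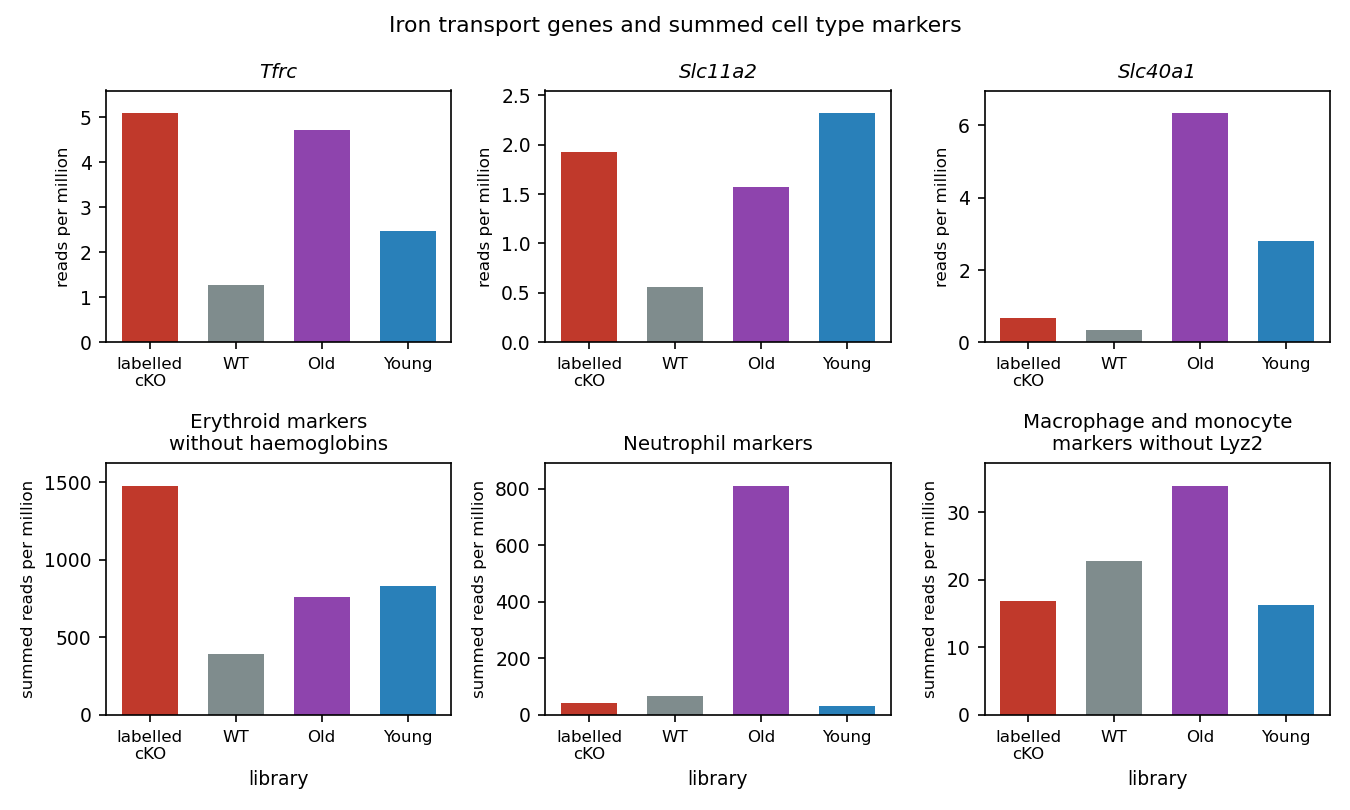
RPM of Tfrc, Slc11a2 and Slc40a1 (top) and summed RPM of erythroid markers without haemoglobins, neutrophil markers, and macrophage and monocyte markers without Lyz2 (bottom) in the 4 libraries. Tfrc and the erythroid sum without haemoglobins are both highest in the library labelled cKO and lowest in WT. In Old against Young, Tfrc is higher (4.71 against 2.48 RPM) and that erythroid sum lower (759 against 834 RPM). Slc40a1, the neutrophil sum and the macrophage and monocyte sum are all highest in Old. Slc40a1 is lowest in WT, while the neutrophil sum and the macrophage and monocyte sum are lowest in Young.

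The genes whose levels ran most like those of 3 members over the 4 libraries were taken by the distance between centred log2 RPM, among protein-coding genes with at least 1000 reads on average. For Fth1 these were Srsf2 (distance 0.04), Purb (0.05) and Cat (0.06), and Cat, which encodes catalase, had 1750 RPM in the library labelled cKO, 1550 in WT, 1110 in Old and 1530 in Young. For Ftl1 they were Gm9821 (0.05), Ctsd (0.06) and Dazap2 (0.06). Ctsd encodes the lysosomal protease cathepsin D. For Tfrc, which has few reads, the nearest were farther away: Zfp219 (0.48), Pink1 (0.58) and Gnas (0.62). With 4 libraries such likeness is a description of these libraries.

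Beyond the 10 members, 6 lists of iron and haem genes were counted by the same rule. In the library labelled cKO over WT, 7 of the 51 list genes with at least 100 reads rose, 0 fell and 44 did neither. That is 13.7%, against 4.22% of all genes with as many reads. The lists were chosen with earlier results of these data known, so such shares are a description and no unbiased test. The list median log2 ratio was 0.12 over 82 genes. In Old over Young, 4 of 53 rose, 0 fell and 49 did neither, which is 7.55%, against 8.56% of all genes, and the median was 0.07 over 84 genes.
By list, in the library labelled cKO over WT, 2 of 6 genes of iron uptake, export and its hormone control rose (median log2 ratio 0.33), 0 of 12 of iron-responsive control and ferritin handling (0.36), 2 of 5 of haem synthesis (0.34), 1 of 5 of haem breakdown and scavenging (0.04), 1 of 11 of iron-sulfur cluster assembly (0.15) and 1 of 12 of the defence against lipid peroxidation (0.02). In Old over Young, 2 of 7 genes of uptake, export and hormone control rose (median log2 ratio 0.12), 1 of 12 of iron-responsive control (0.12), 0 of 6 of haem synthesis (-0.18), 1 of 5 of haem breakdown (0.13), 0 of 12 of iron-sulfur cluster assembly (-0.30) and 0 of 11 of the lipid peroxidation defence (0.35). Each median stands beside -0.01 and -0.06 over all genes in these comparisons. The list of lipid peroxidation defence also holds Acsl4, Lpcat3, Alox12 and Alox15, which promote such peroxidation. Its medians therefore mix genes of both kinds. The Old over Young medians of uptake and export, iron-responsive control and haem breakdown are below 0 when scaled by total reads (-0.04, -0.03 and -0.03). That of iron-sulfur cluster assembly is 0.05 over genes with at least 100 reads. The sign of these medians against 0 is therefore not settled. Total reads move every Old over Young log2 ratio by -0.157, that of all genes included. The distance of a list median from the median of all genes does not change with the scaling.

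Genes of haem synthesis and of mitochondrial iron import were among those that rose in the library labelled cKO over WT. Haem synthesis genes summed to 1691 RPM in the library labelled cKO, against 492 RPM in WT, and 871 RPM in Old, against 1456 RPM in Young. Alas2, the first enzyme of haem synthesis in red-cell precursors, had 22424 reads in the library labelled cKO, against 5972 in WT, a ratio of 3.69 (3.58 to 3.80). Alas2 was also the 1 list gene besides Bola3 with the hairpin pattern, in its 5′ UTR. Fech, which inserts iron into the porphyrin ring, had 6215 reads in the library labelled cKO, against 1721 in WT, a ratio of 3.55 (3.36 to 3.74). Slc25a37, mitoferrin, which brings iron into mitochondria, had 1685 reads in the library labelled cKO, against 470 in WT, a ratio of 3.52 (3.18 to 3.91). These 3 genes stood lower in WT than in Young, with ratios of 0.313 for Alas2, 0.463 for Fech and 0.395 for Slc25a37, all past the rule, as 0.565% of all genes were on the low side. Over Young, the library labelled cKO had ratios of 1.18 for Alas2, 1.68 for Fech and 1.42 for Slc25a37, none past the rule. The erythroid markers given above were also higher in the library labelled cKO than in WT, and their part in these differences was not tested. Urod, an enzyme of the middle of the route, had a ratio of 2.21 (1.82 to 2.69) without passing.

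Other genes that rose in the library labelled cKO over WT were Slc48a1, a haem transporter of lysosomes (2.25, 2.08 to 2.43), Glrx5, a glutaredoxin of iron-sulfur cluster assembly (2.71, 2.35 to 3.15), Hfe2, hemojuvelin, a co-receptor in the control of hepcidin (3.92, 3.00 to 5.18), and Gss, glutathione synthetase (2.41, 2.13 to 2.74). Hfe2 had 275 reads in the library labelled cKO, against 69 in WT, and 126 in Old, against 112 in Young. Hfe2 and Gss also passed the rule over Young, with ratios of 2.69 and 2.77, and Nfe2l2 passed there at 2.25 (2.06 to 2.47). These were 1 of 6 genes of uptake, export and hormone control, 1 of 12 of lipid peroxidation defence and 1 of 12 of iron-responsive control. No gene of the other lists rose there, against 2.07% of all genes. That pairing shares the library labelled cKO. Over WT, in the list of iron-responsive control, Pcbp1, an RNA-binding protein that also delivers iron to ferritin, had a ratio of 2.16 (1.98 to 2.37). Nfe2l2, the antioxidant transcription factor that can raise ferritin transcription, had 1.71 (1.57 to 1.86) over WT. Neither passed over WT. On the low side without passing, Hmox2, the constitutive haem oxygenase, had a ratio of 0.444 (0.308 to 0.632), and Snx3, a sorting nexin that recycles the transferrin receptor, 0.576 (0.544 to 0.610).

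In Old over Young, Hp, haptoglobin, which binds free haemoglobin, rose 29.2-fold (17.7 to 51.5), with 426 reads in Old and 16 in Young. Steap4, a metalloreductase, rose 16.3-fold (9.33 to 31.2; 194 reads in Old and 13 in Young). Lrp1, a scavenger receptor that takes up haem bound to haemopexin, rose 12-fold (8.94 to 16.3; 546 reads in Old and 50 in Young). Fbxl5, the iron-sensing ligase subunit that marks the Ireb2 protein for degradation, rose 2.55-fold (2.14 to 3.04), with 440 reads in Old and 189 in Young, and had 143 reads in the library labelled cKO and 174 in WT. Scaled by total reads, Fbxl5 did not reach the rule and 3 list genes passed. The summed neutrophil markers were far higher in Old, as given above, and their part in the rise of Hp, Steap4, Lrp1 and Fbxl5 was not tested. Epas1, a hypoxia-inducible factor, had a ratio of 2.17 (1.98 to 2.39) and Lpcat3, an enzyme of membrane phospholipids, 2.21 (1.92 to 2.56), both just short of the rule. Haem synthesis genes lay on both sides of 1, with 5 above and 7 below and none past the rule: Alas2 had a ratio of 0.657 (0.643 to 0.672) and Fech 0.584 (0.554 to 0.616), while Alas1, the first enzyme outside red-cell precursors, had 1.56 (1.18 to 2.06) and Urod 1.30 (1.08 to 1.57). Hspa9, the mitochondrial chaperone of iron-sulfur cluster transfer, had a ratio of 0.497 (0.422 to 0.584), and Slc25a37 0.624 (0.569 to 0.683).

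**Figure D5:**
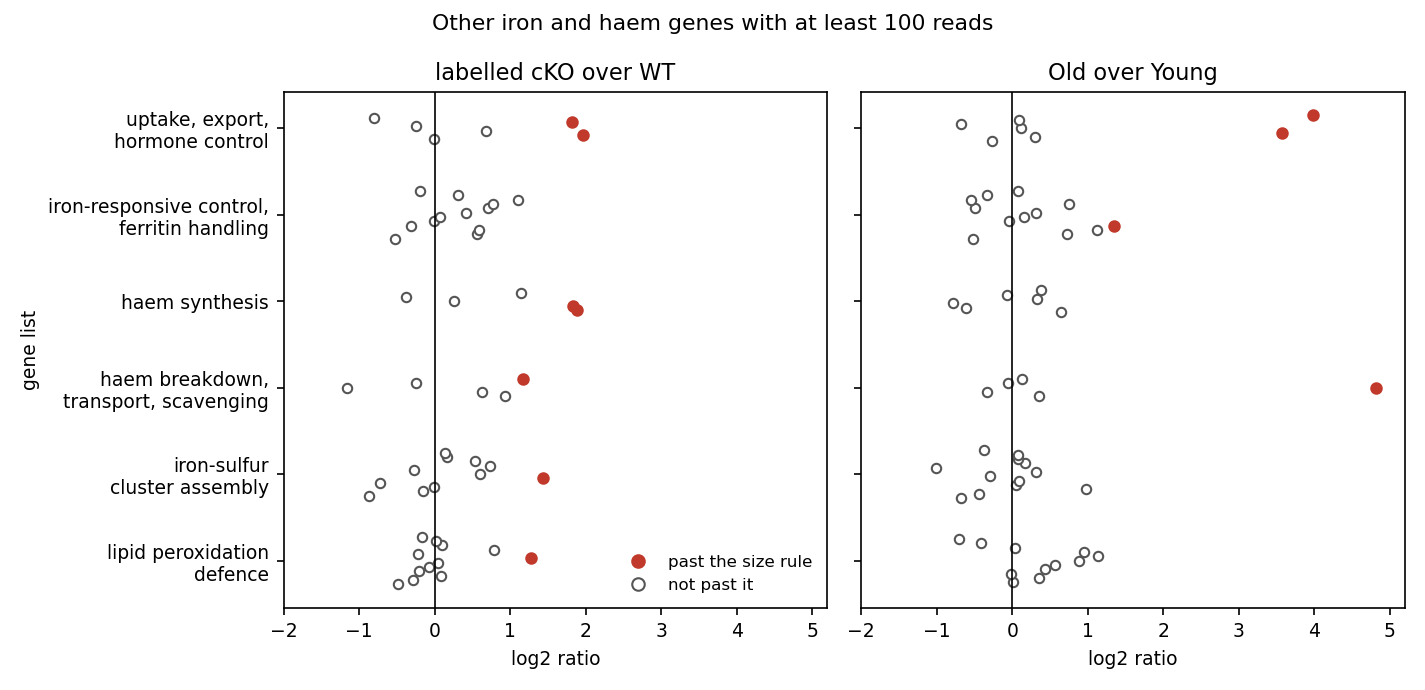
Log2 ratio of each gene whose larger count reached 100 reads, in 6 lists of iron and haem genes, for the library labelled cKO over WT (left) and Old over Young (right); filled points passed the 2-fold rule and open points did not. All 7 filled points on the left and all 4 on the right lie above 0.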

How the data were processed

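RNA of platelets pooled from 7 mice per library was sequenced in 4 libraries, 1 per group. The submitters' processing notes name build mm10 and, without role or order, DESeq2 1.20.0, featureCounts 1.5.0-p3, HISAT2 2.0.5 and CASAVA; whether strand was used is not said. The authors deposited 2 tables with a signal per gene and library, scaled within each table. Values were multiples of a step per library, which stands for 1 read, and 100% of them came out as whole reads within 0.02 read. The recovered reads replaced the counts that the planned design assumed. The authors' log2 fold change and their p-value and adjusted p-value are quoted as deposited. Left unused were 4 per-sample columns whose names fit no sample here.

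With 1 library per group no test across replicates and no count test could be run. TMM factors (edgeR 4.0.16, R 4.3.3) scaled the library sizes per pair; pairs across tables used the 14652 genes in both. Ratios carry exact (Clopper-Pearson) 95% intervals for counting error; without molecular identifiers, PCR reads cannot be taken as independent molecules. The floor of 3 reads is 0.162 to 0.169 RPM. List medians used a pseudocount of 0.5 read and members with at least 20 reads. The procedure was tested on simulated reads that held counting error only. That test cannot speak to variation between libraries or to amplification. All 10 members were named. Other list genes were named if past the rule, and otherwise from the 4 per list with the largest ratios among those with at least 100 reads; like genes needed at least 1000 reads on average. Members and lists were chosen with earlier results of these data known. Alternatives covered scaling (DESeq2 1.42.0 size factors, total reads, total reads without haemoglobin and the 10 most abundant genes), the read minimum, the fold bound, the pseudocount, the authors' fold changes and ferritin copies.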

Additional observations from a re-analysis of the deposited data

How the results depend on the processing

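No paired analysis was possible because each group has 1 library and the labels give no replicate numbers, and no replicate could be left out. For the library labelled cKO over WT, the count of members past the rule was 0, but 1 with a minimum of 20 reads or with no minimum (Tfrc), and the other alternatives left it at 0. For Old over Young it was 0, but 1 with a bound of 1.5-fold and 1 by the authors' deposited log2 fold change of at least 1 (Slc40a1 in both). The 7 iron pathway genes past the rule in the first comparison became 14 with a bound of 1.5-fold (12 higher, 2 lower). They became 0 with a bound of 4-fold. With no minimum of reads, and also by the authors' fold change, they became 10 (9 higher, 1 lower). The 4 in Old over Young became 7 with no minimum of reads, all higher. They became 10 with a bound of 1.5-fold (8 higher, 2 lower) and 7 by the authors' fold change (6 higher, 1 lower). With total reads 3 genes passed in Old over Young, all higher; without haemoglobin and the 10 most abundant genes in the totals 4 passed, 3 higher and 1 lower. More genes enter with a lower minimum of reads and more pass a looser bound by construction. The share of all genes that pass under these alternatives is not given here, so the counts do not set the iron genes apart. The list medians stayed within the order-statistic interval of each median in all 156 alternatives, but those intervals are wide and several medians changed sign. In Old over Young, uptake and export had -0.04 with total reads and -0.11 without haemoglobin and the 10 most abundant genes in them, iron-responsive control -0.03 and -0.11, haem breakdown -0.03 and -0.10, the erythroid markers -0.01 and -0.09, the macrophage and monocyte markers -0.03 and -0.10, and the 10 members -0.06 under the second. With list genes of at least 100 reads, iron-sulfur cluster assembly in Old over Young had 0.05, and in the library labelled cKO over WT the lipid peroxidation defence had -0.02 and haem breakdown 0.63, against 0.04. Total reads in place of TMM moved every Old over Young log2 ratio by -0.157, and total reads without haemoglobin and the 10 most abundant genes by -0.23. The median over all genes moves by the same amounts. Scaling can therefore change the sign of a median but not its distance from that of all genes. Fth1 stayed lower in Old than in Young, with ratios of 0.679 to 0.813, while Ftl1 had 0.915 and 0.870 under these scalings, and Aco1 0.959 under the second. Depth limits Steap3, Slc40a1 in the first table, Slc11a2 and Hmox1, all with few reads.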
